A study of Drosophila melanogaster with 3 samples.

Results

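The genes described here were 269 small nucleolar RNA (snoRNA) genes of Drosophila melanogaster and the 92 genes that host them, together 361 of the 18164 annotated genes on the 6 chromosome arms, transposable elements left out. The snoRNA genes were all those of that biotype on arms 2L, 2R, 3L, 3R, 4 and X in the Ensembl annotation of assembly BDGP6 (dm6), and the host of each was the gene on the same strand that contains it, the shortest for the 12 snoRNA genes inside more than 1. By this rule 247 snoRNA genes lay inside a host and 22 had none. The chromatin came from whole embryos aged 0 to 24 hours and was precipitated with an antibody against GFP before sequencing (ChIP-seq). All embryos were of a strain with an inserted CG11695-eGFP transgene, in which the zinc finger protein CG11695 is fused to enhanced green fluorescent protein, and they formed 1 group of 3 biological replicates. The tagged protein is read in place of the native one, the cells of the embryo are mixed, and the promoter of the transgene is not given in the sources used here. Peaks from an input or a mock precipitation were not analysed here, and no value below is set against a control.

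snoRNAs guide the chemical modification of other RNAs, above all ribosomal RNA, in the nucleolus. Box C/D snoRNAs direct methylation of the ribose and box H/ACA snoRNAs direct the change of uridine to pseudouridine. In flies and mammals most are cut from the introns of other transcripts, many of them made from ribosomal protein genes and others from Uhg genes, whose spliced RNA codes for no protein. The promoter of an intron-encoded snoRNA is thus that of its host, and transcripts of ribosomal protein genes usually begin in a run of pyrimidines.

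The names of most snoRNA genes went with the sequence marks of their kind. Of 112 genes named for a pseudouridine, 109 held ACA within their last 8 bases, the mark of the H/ACA kind. Of 87 genes named for a methylation, 63 held both TGATGA within the first 15 bases and CTGA within the last 12, the C and D boxes. A further 70 genes had other names. The sequence of snoRNA:Psi28S-3342, the one shown because a peak summit lay inside it, is given 5′ to 3′ with its ACA in capitals (dm6, chrX:5524302-5524465, minus strand, from the RefSeq copy of the assembly).
snoRNA:Psi28S-3342: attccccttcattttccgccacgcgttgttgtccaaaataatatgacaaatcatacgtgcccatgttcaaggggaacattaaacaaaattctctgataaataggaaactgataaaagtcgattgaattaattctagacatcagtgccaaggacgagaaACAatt

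The start sites of the host genes are shown next, because most summits at ribosomal protein hosts (15 of 18) lay within 100 bp of one. Each sequence runs 5′ to 3′ from 80 bases before a transcription start site (TSS) to base 20 of the transcript, and capitals mark a run of at least 8 C or T that overlaps the 10 bases on either side of the TSS. The TSS shown is the one nearest to the peak, or the 5′ end of the gene where there is no peak. RpS20 (dm6, chr3R:20822101-20822200, plus strand), RpL14 (chr3L:8600926-8601025, plus), RpS7 (chr3R:30208929-30209028, minus), RpS4 (chr3L:13041721-13041820, plus) and RpL4 (chr3R:27922741-27922840, plus) are ribosomal protein hosts with a peak and such a run. RpL30 (chr2L:19009287-19009386, minus) is one with a peak and no such run at the start shown.
RpS20: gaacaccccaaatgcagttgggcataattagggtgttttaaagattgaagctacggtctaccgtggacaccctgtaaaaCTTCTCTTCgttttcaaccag
RpL14: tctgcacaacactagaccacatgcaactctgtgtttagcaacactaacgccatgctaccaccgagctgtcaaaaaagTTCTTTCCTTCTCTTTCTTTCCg
RpS7: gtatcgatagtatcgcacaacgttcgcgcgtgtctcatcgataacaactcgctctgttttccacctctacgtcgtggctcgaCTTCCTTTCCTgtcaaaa
RpS4: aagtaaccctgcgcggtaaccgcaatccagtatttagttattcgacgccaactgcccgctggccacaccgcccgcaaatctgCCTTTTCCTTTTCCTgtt
RpL4: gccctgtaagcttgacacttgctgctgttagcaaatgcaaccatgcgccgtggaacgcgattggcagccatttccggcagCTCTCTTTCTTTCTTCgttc
RpL30: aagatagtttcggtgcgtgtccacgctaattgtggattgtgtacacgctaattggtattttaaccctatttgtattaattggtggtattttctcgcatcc

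The comparison set is the start of a non-coding host with a peak, Uhg8 (chr3L:20453213-20453312, plus), and of 2 protein-coding hosts without one, Arpc2 (chr2L:20416977-20417076, plus) and Hrb98DE (chr3R:28599754-28599853, plus), which hold 17 and 7 snoRNA genes. None of these had a run of that length at the start shown.
Uhg8: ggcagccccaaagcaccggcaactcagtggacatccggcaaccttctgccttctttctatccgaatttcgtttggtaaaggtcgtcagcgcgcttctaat
Arpc2: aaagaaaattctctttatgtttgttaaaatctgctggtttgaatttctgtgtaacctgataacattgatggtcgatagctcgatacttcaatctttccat
Hrb98DE: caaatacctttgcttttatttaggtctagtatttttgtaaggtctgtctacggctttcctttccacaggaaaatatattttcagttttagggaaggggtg

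Lists of 3 kinds entered the values. The main list was the authors' conservative thresholded list, with 4770 peaks from pooled libraries. Each replicate also had an own thresholded list, of 3404, 2774 and 2716 peaks in replicates 1, 2 and 3, and an own ranked list of 80383, 73730 and 70919 records before thresholding. A gene was counted when a summit, the highest point of a peak, lay within 500 bp of the snoRNA gene or of a TSS of the host. The signal of a peak is the authors', on a scale that is not stated, and serves here for ranks and descriptions inside 1 list, where rank 1 is the strongest. The lists hold no read totals, so the depth is unknown and signals carry no counting interval. With 1 group and no control, shares are set beside those of other genes without a test.

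Host promoters carried peaks at a higher share than other protein-coding promoters, and among host classes of more than 1 gene the share was highest at ribosomal protein hosts. A main summit lay within 500 bp of a TSS at 41 of 92 hosts (44.6%), against 2218 of 13863 protein-coding genes that host no snoRNA (16%) and 13.9% of all genes. In the own lists the hosts with a summit were 32, 27 and 28 in replicates 1, 2 and 3, which is 31.5% ± 2.88 (SD, n = 3), against 12.4%, 10.1% and 10.5% of protein-coding genes that host none. Over all genes the own lists gave 10.5%, 8.53% and 9.03%. The share of hosts was above that of the other protein-coding genes in each of the 3 lists. A gene was counted at any of its annotated TSSs, of which the 92 hosts had 177 and the 13863 other genes 19442, with a median of 1 per gene in both. Hosts thus had more TSSs per gene on average, and the shares were not matched for this. Of the 41, 17 had a summit in all 3 own lists, 9 in 2, 11 in 1 and 4 in none.

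Ribosomal protein hosts had a main summit at 18 of 27 (66.7%). In the own lists it was 15, 14 and 11 of the 27 in replicates 1, 2 and 3, or 49.4% ± 7.71 (SD, n = 3). Ribosomal protein genes that host no snoRNA had one at 39 of 65 (60%), and at 36.9%, 33.8% and 35.4% in the own lists. Hosts were above non-hosts of the same family in each list, and closest to them in the main list and in that of replicate 3. The 2 sets were not matched. The family was taken by symbol alone, and the median number of annotated TSSs was 2 for hosts and 1 for non-hosts. Whether hosting goes with the difference was not tested. The gene sta, which encodes ribosomal protein SA, does not carry the family's symbol and was counted with the other hosts. With sta the ribosomal protein hosts numbered 19 of 28 (67.9%).

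**Figure D1:**
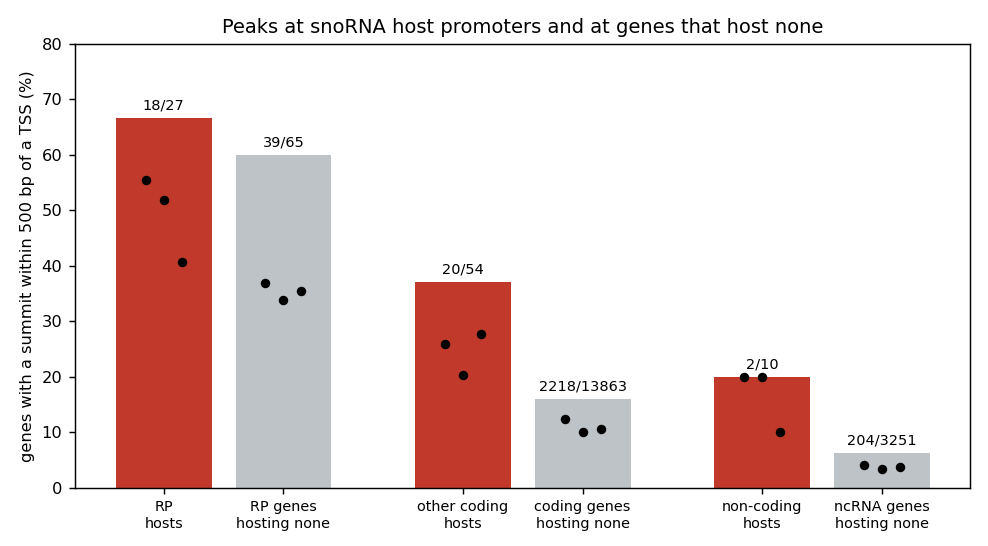
Percentage of genes with a peak summit within 500 bp of a TSS, for snoRNA hosts (red bars) and for genes of like kind that host none (grey bars), with gene counts above each bar from the main list and black points for the own lists of replicates 1, 2 and 3 from left to right. Ribosomal protein (RP) hosts stand at 66.7% and RP genes hosting none at 60%, other coding hosts at 37.0% and coding genes hosting none at 16%, non-coding hosts at 20% and ncRNA genes hosting none at 6.27%.

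RpS20, which encodes a protein of the small ribosomal subunit and hosts 2 snoRNA genes, had the strongest peak of the ribosomal protein hosts. Its summit lay 165 bp upstream of the TSS (dm6, 3R, peak 20821910 to 20822112), with a main signal of 331 and rank 456. In the replicates' ranked lists its signals were 122, 96.4 and 98.7, at ranks 539, 573 and 448 in replicates 1, 2 and 3. The 3 replicates placed it within a narrow span of ranks. That summit lay 168 bp from the TSS of CG17271, almost as near as RpS20.

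RpL30 (1 snoRNA gene) followed with a main signal of 228 and a summit 3 bp downstream of the TSS (2L, 19009113 to 19009492). Its signals in the ranked lists were 90.8, 60.5 and 90.5, highest in replicates 1 and 3 and lower in replicate 2. RpL14 (2 snoRNA genes) had 210 in the main list and 90.4, 73.6 and 51.3 in replicates 1, 2 and 3, with the summit 16 bp upstream (3L, 8600800 to 8601179). RpS7, a host of 7, had 188, with 79.7, 54.3 and 63.6 in the 3 replicates and its summit 20 bp upstream (3R, 30208778 to 30209157). All 4 of these promoters were in each replicate's own list.

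RpS4 (163), RpL4 (152), RpL22 (144) and RpL17 (144) were likewise in all 3 own lists, with summits 14 to 39 bp upstream of the TSS. The next ribosomal protein hosts were in fewer own lists. RpL28 (main signal 129, 5 snoRNA genes) and RpL3 (117, 4 snoRNA genes) were in 2 own lists, and RpL11 (143) in that of replicate 1 alone. RpL3 ranked 2991, 11772 and 1604 in replicates 1, 2 and 3, so replicate 2 stood far below the others there. RpL11 ranked 1605 in replicate 3, next to RpL3, yet RpL3 was in that own list and RpL11 was not. Absence from an own list is thus not by itself a low rank, and the reason for it was not tested. RpS16, RpS29, RpS5a, RpL27A and RpS3A had main signals between 83.0 and 110, and RpS3A was in no own list. RpS5a, with 14 snoRNA genes the host of most in this family, had 97.6 and was in the own list of replicate 1.

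Of the ribosomal protein hosts, 9 had no main summit, namely RpL5, RpL7A, RpL10Ab, RpL13A, RpL15, RpL36A, RpS6, RpS9 and RpS12. RpL10Ab, RpL5 and RpL7A had a summit in the own list of replicate 2 and RpL36A in that of replicate 3. RpL13A had a record of signal 108 in the ranked counterpart of the main list, past the authors' score threshold of 830 but left out of the thresholded list. RpL15 lies near the centromere of 3L (27267255 to 27268445), beyond the last main peak of that arm, which ended at 22879065. RpL5 (2L, 22532279 to 22536884) likewise lies beyond the last main peak of 2L, at 22140471. Ranked records did lie within 500 bp of both genes' TSSs. RpL15 had 23.3 and 15.6 in replicates 1 and 2 and none in replicate 3. RpL5 had 22.1 in replicate 2 and none in replicates 1 and 3. How well reads could be placed over these stretches as a whole was not tested.

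**Figure D2:**
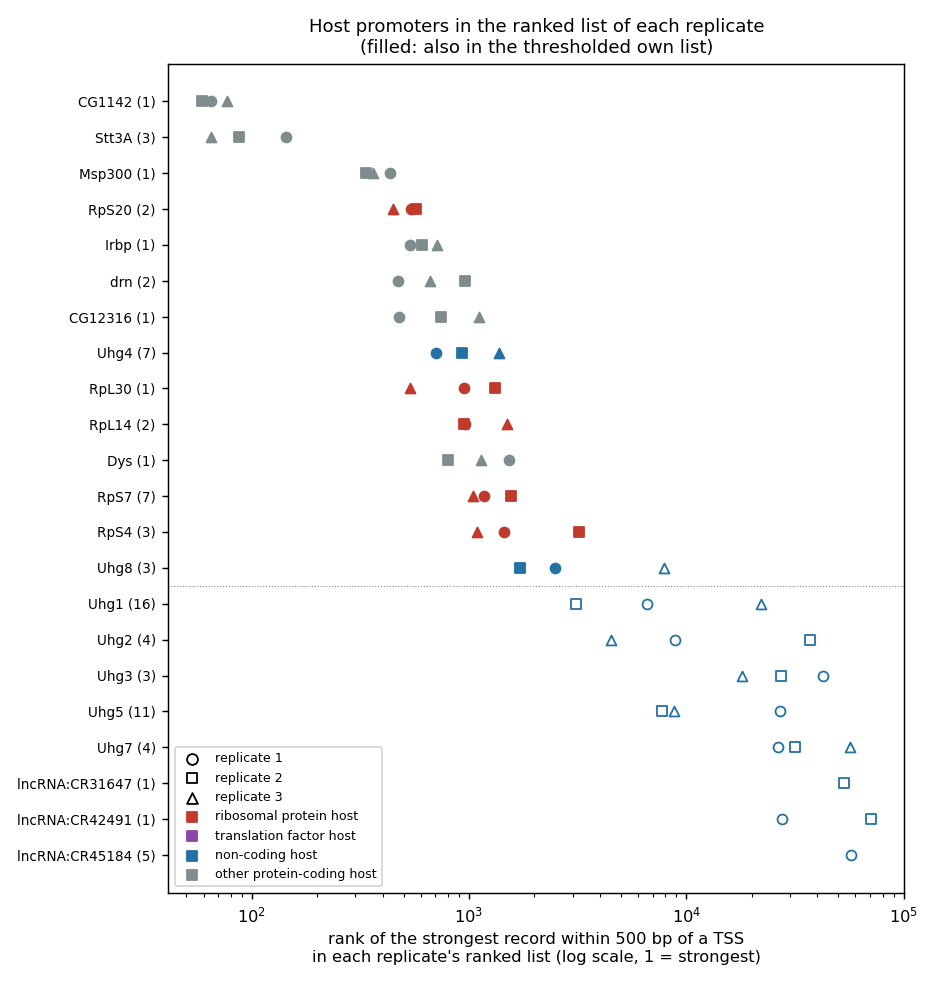
Rank of the strongest record within 500 bp of a TSS in each replicate's ranked list (log scale, 1 = strongest), for the 13 hosts with the strongest main summit, Uhg8 and, under the dotted line, the non-coding hosts without one, with the number of snoRNA genes in brackets. CG1142 stands at ranks 65, 59 and 77, and the strongest rank under the line is 3100; filled symbols are also in the thresholded own list, and a missing symbol means no record.

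Only 2 of 10 non-coding hosts had a main summit (20%), in the own lists 2, 2 and 1 of the 10, against 6.27% of ncRNA genes that host none, and 4.18%, 3.38% and 3.69% in the own lists. Uhg4 (2R, 9095273 to 9097312, 7 snoRNA genes) had a main signal of 239 and rank 846, with the summit 55 bp upstream of its TSS. Its signals in replicates 1, 2 and 3 were 107, 74.4 and 54.3, and each was in that replicate's own list. Uhg8 (3L, 20453293 to 20454731, 3 snoRNA genes) had 115, with 49.0, 51.1 and 20.7 in the replicates, and was not in the own list of replicate 3. The Uhg8 summit lay 272 bp upstream of its TSS and 157 bp from that of CG5199.

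Uhg1, Uhg2, Uhg3, Uhg5, Uhg7, lncRNA:CR31647, lncRNA:CR42491 and lncRNA:CR45184 had no main summit and none in an own list. Uhg1, which holds 16 snoRNA genes, had records of signal 26.7, 34.5 and 12.7 at ranks 6604, 3100 and 22135 in replicates 1, 2 and 3. Uhg5, which holds 11, had 13.5, 21.5 and 19.7. The strongest rank of any of these 8 hosts in a ranked list was 3100, that of Uhg1 in replicate 2. Of the 55 snoRNA genes in non-coding hosts, 10 had a summit at the gene or the host TSS.

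Protein-coding hosts outside the ribosomal proteins had a main summit at 20 of 54 (37.0%), and at 25.9%, 20.4% and 27.8% in the own lists of replicates 1, 2 and 3. CG1142 (3R, 7472458 to 7473781, 1 snoRNA gene) was the strongest of all hosts, with a main signal of 830 and rank 64. Its signals were 339, 272 and 215 in replicates 1, 2 and 3, at ranks 65, 59 and 77, so all 3 replicates placed it alike. The summit lay 164 bp upstream of its TSS, and no other gene started within 500 bp. Stt3A, a catalytic subunit of the enzyme that attaches sugar chains to proteins, had 717 and rank 94, with 241, 242 and 233 in the replicates. The Stt3A summit was 414 bp from its TSS and 195 bp from that of bves.

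The sequences around the CG1142 and Stt3A summits are shown because these were the strongest member peaks. Each runs 100 bases on the plus strand with the summit base in capitals (dm6, chr3R:7473895-7473994 and chrX:21054301-21054400). G and C made up 22% and 29% of them.
CG1142: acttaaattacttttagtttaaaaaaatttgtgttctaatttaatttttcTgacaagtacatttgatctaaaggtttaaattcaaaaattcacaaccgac
Stt3A: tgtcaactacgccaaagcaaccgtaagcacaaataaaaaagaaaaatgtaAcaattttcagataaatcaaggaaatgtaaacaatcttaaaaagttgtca

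Msp300, a giant protein that anchors nuclei in muscle, had a main signal of 354, Irbp, the fly Ku70 of DNA repair, 297, drn 279 and CG12316 275. Dys, which encodes dystrophin, had 194. Each of these was in all 3 own lists. The splicing factor gene SC35 (128) and hts (115), which encodes adducin, were in 2 own lists. lola, a transcription factor gene that hosts 4 snoRNA genes, had 146 and was in the own list of replicate 1 alone. The records of SC35 in replicate 1 (rank 2154) and of lola in replicate 2 (rank 2122) were not in those own lists despite their ranks. The elongation factor gene eEF1alpha1, the 1 host in the class of translation factors, had a signal of 128 with the summit 18 bp upstream, and was in the own lists of replicates 1 and 3. The remaining 9 hosts, skd, CG43051, CG42564, Arf1, mask, sta, Rbfox1, tou and pAbp, had main signals from 58.9 to 89.3. CG42564 and mask were in no own list.

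The summits sat closer to the TSS at ribosomal protein hosts than at other hosts. At the 18 ribosomal protein hosts with a summit the distance to the nearest TSS had a median of 20 bp, from 3 to 205 bp, and 15 lay within 100 bp. At the 20 other protein-coding hosts the median was 134.5 bp, from 7 to 414 bp, and 8 lay within 100 bp. Median numbers of annotated TSSs were 2 in both classes. Of all 41 strongest summits, 31 lay upstream of the nearest host TSS, and the median position was -37 bp. At the edge of the window, by the nearest summit of each host, the last inside were skd, Msp300 and Stt3A at 374, 383 and 414 bp, and the nearest outside were CG3902, tra2 and lncRNA:CR42491 at 664, 1148 and 1359 bp.

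**Figure D3:**
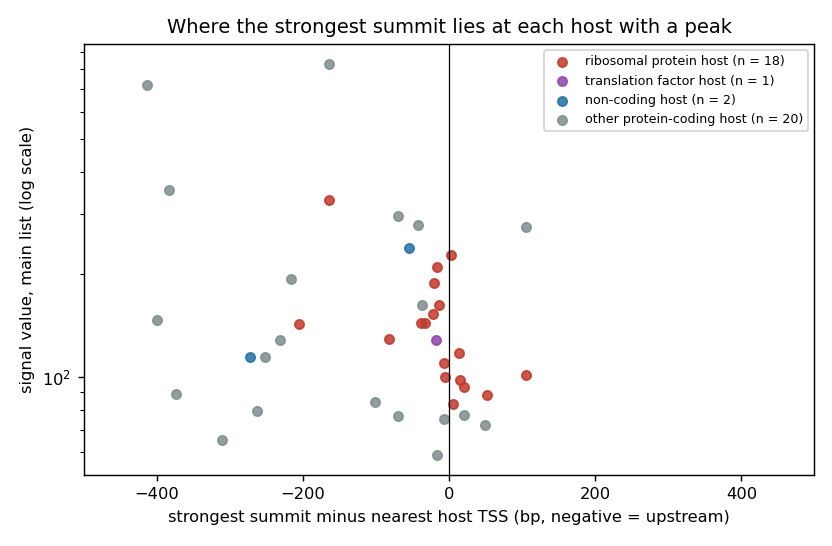
Position of the strongest summit relative to the nearest TSS of each of the 41 hosts with a peak (bp, negative = upstream) against the authors' signal in the main list (log scale), coloured by host class. Summits of ribosomal protein hosts lie between 3 and 205 bp from a TSS, those of other protein-coding hosts between 7 and 414 bp.

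Several of these summits could be given to a neighbour as well. Another gene started within 500 bp of the summit at 22 of the 41 hosts, and at 9 it was nearer than the host. Among these were Stt3A, SC35, Uhg8, hts, skd, CG42564, Arf1 and tou. The hts summit lay 252 bp from the host's TSS and 42 bp from that of CalpA, and the SC35 summit 231 bp from its TSS and 183 bp from that of eRF3. None of the 18 ribosomal protein hosts was in this group.

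The runs of C or T shown above separated ribosomal protein genes from other genes whether or not they had a peak. A run of at least 8 such bases overlapping the 10 bases on either side of a TSS, read on the transcribed strand, occurred at 25 of 27 ribosomal protein hosts (92.6%), 3 of 10 non-coding hosts and 6 of 54 other protein-coding hosts (11.1%). It occurred at 52 of 65 ribosomal protein genes that host none and at 8.13% of protein-coding genes that host none. Among ribosomal protein hosts it was at 17 of 18 with a main summit and 8 of 9 without, so the run did not part those with a peak from those without. TATCGATA on either strand, the DRE motif, was searched from 250 bases before to 50 bases after the TSS. It was at 8 of 27 ribosomal protein hosts (29.6%), 14 of 54 other protein-coding hosts and none of 10 non-coding hosts, against 10.1% of protein-coding genes that host none. Ribosomal protein genes that host none had it at 20 of 65 (30.8%), nearly the share of the hosts in that family. By peak, it was at 9 of 41 hosts with a main summit (22.0%) and 13 of 51 without (25.5%).

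Summits of members lay in sequence with more G and C than main summits at large. In the 200 bp around the strongest summit of each member the median was 40.5% (n = 49), against 34.5% at the 4770 main summits. The median was 45.0% at ribosomal protein hosts (n = 18). Summits there ranged from 27.5% to 56%. The share of promoters among the summits was not matched in this description.

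The number of snoRNA genes in a host did not order the hosts by peaks. A main summit was at 22 of 55 hosts of 1 snoRNA gene, 14 of 23 hosts of 2 to 4, and 5 of 14 hosts of 5 or more. The 10 hosts with the most held 109 snoRNA genes, and 3 of them had a main summit, RpS5a, RpS7 and Uhg4. Those without were Arpc2, a subunit of the actin-branching Arp2/3 complex, with 17 snoRNA genes, Uhg1 with 16, the chromatin remodeller gene dom with 15, Uhg5 with 11, kra with 8, and Hrb98DE and Nop60B with 7 each. Arpc2 had records of signal 39.0, 32.5 and 14.5 in the ranked lists of replicates 1, 2 and 3, at ranks 3516, 3430 and 16973. For dom they were 18.5, 15.7 and 15.9. Neither was in an own list.

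**Figure D4:**
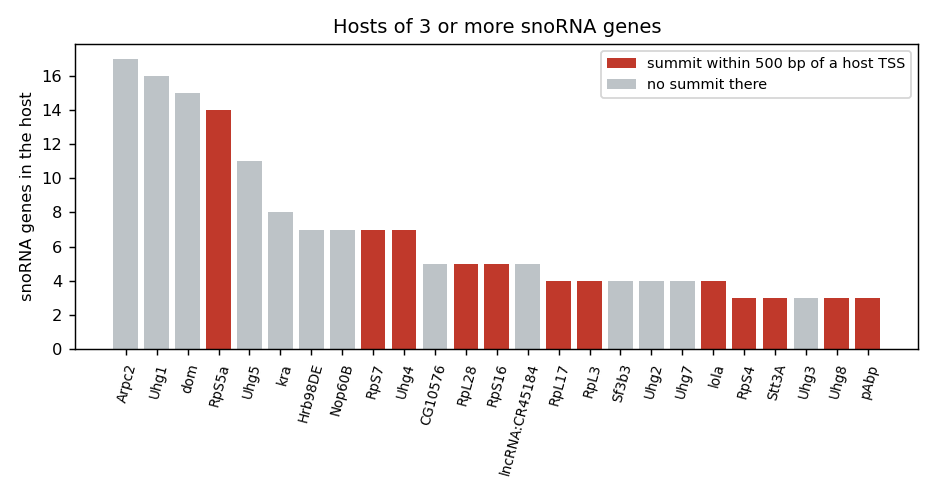
Number of snoRNA genes in each host that holds 3 or more, in falling order, with hosts that have a main summit within 500 bp of a TSS in red and those without in grey. Arpc2 (17), Uhg1 (16) and dom (15) have none, and RpS5a (14) is the host of most with one.

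Counted by snoRNA gene, 106 of 269 (39.4%) had a main summit at the gene or at its host's TSS. The count was 92 (34.2%), 57 (21.2%) and 56 (20.8%) in the own lists of replicates 1, 2 and 3. Of all genes, 13.9% had a main summit at a TSS, and 10.5%, 8.53% and 9.03% had one in the own lists. Those shares rest on 1 kind of window and these counts on 2, so they are not like measures. For snoRNA genes in ribosomal protein hosts the main count was 57 of 69 (82.6%), and in other protein-coding hosts 31 of 122 (25.4%). In non-coding hosts it was 10 of 55 (18.2%), in the translation factor host 1 of 1, and for those with no host 7 of 22 (31.8%). A snoRNA gene in the same host shares its promoter with the rest, so these genes are not independent.

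The snoRNA genes themselves were seldom near a summit. A main summit lay within 500 bp of 17 of 269 (6.32%), against 40 of 322 tRNA and snRNA genes (12.4%), and 3.27% of the bases of the arms lay that near to a main summit. In the own lists it was 16, 5 and 9 snoRNA genes in replicates 1, 2 and 3, or 3.72% ± 2.07 (SD, n = 3), against 3.11%, 2.17% and 6.83% of tRNA and snRNA genes. The own lists did not keep 1 order: snoRNA genes had the higher share in replicate 1 and the lower in replicates 2 and 3. The median distance from a snoRNA gene to the nearest main summit was 4937 bp, and to the nearest TSS of its host 1433 bp.

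Most hosted snoRNA genes near a summit shared it with the host's promoter. Of 35 snoRNA genes within 500 bp of a host TSS, 6 had a summit within 500 bp, against 2 of 51 at 501 to 1000 bp and 2 of 161 farther away. For 8 of the 10 hosted genes the summit was also the one at the host's TSS. These were Psi28S-2949 and Or-aca5 in Uhg4, a U49 snoRNA gene in RpL14, Psi28S-1232 in RpL17, Me18S-C1096 in RpL3, Psi18S-1275 in RpS29, CG43051-a in CG43051 and Me28S-G2173 in RpS16. The peak next to Me28S-G2173 had a signal of 12.4 and lay beside a stronger record at the RpS16 TSS. Genes just inside the window were Me28S-G2173, the U49 gene in RpL14 and Me18S-C1096, at 475, 483 and 497 bp, and those just outside were Or-CD11a, Or-ACA6 and Psi18S-1295, at 501, 510 and 594 bp.

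Summits away from the host's promoter were found at 2 hosted genes. The summit near snoRNA:abba-a lay in an intron of tn, a muscle ubiquitin ligase gene (2R, 18994044 to 18994423, signal 129), 462 bp upstream of the snoRNA's 5′ end and 3197 bp from the nearest TSS of a gene other than a snoRNA. Within 500 bp of the snoRNA gene, replicates 2 and 3 had ranked records of 51.6 and 30.2 and replicate 1 had none. The main summit was near the edge of that window, so a replicate's summit just past it was not counted. The peak overlapped 1 own list. The summit near snoRNA:hts-a (2R, 19414440 to 19414819, signal 89.0) stood over the gene tRNA:Ser-CGA-1-4 in an intron of hts, and overlapped no own-list peak.

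**Figure D5:**
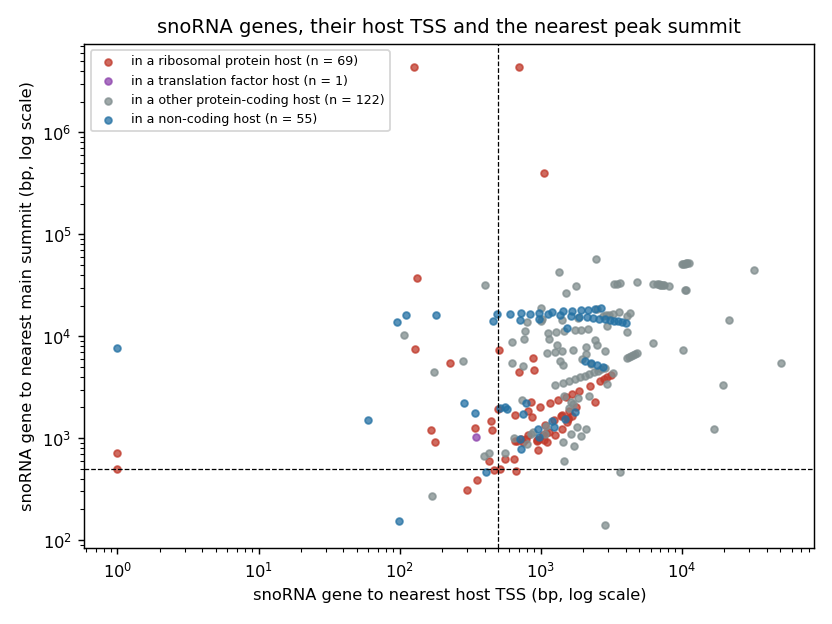
Distance from each of the 247 hosted snoRNA genes to the nearest TSS of its host (horizontal, log scale) and to the nearest main summit (vertical, log scale), with dashed lines at 500 bp and distances of 0 drawn at 1 bp. The 10 genes under the horizontal line have a summit within 500 bp, and 6 of them are also within 500 bp of the host TSS.

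Of the 22 snoRNA genes without a host, 7 had a main summit within 500 bp, and they shared 5 peaks. Or-CD13 had the highest signal, 123 (2R, 10081645 to 10082024), with the summit 418 bp from the gene, past its 3′ end. The summit at Psi18S-176 (signal 115) lay 5 bp upstream of its 5′ end (2R, 23839879 to 23840258) and 508 bp from the TSS of any other kind of gene. Its records in replicates 1, 2 and 3 were 50.8, 38.5 and 20.7. A cluster of 3 genes, Psi28S-1153 and 2 neighbours upstream that are named only by a position, shared a peak of signal 84.2 (2R, 13557808 to 13558187). Its summit lay inside the neighbour farthest upstream, 312 bp from Psi28S-1153.

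U3:54Ab makes a U3 snoRNA, which is needed to cut the ribosomal RNA precursor. A summit with a signal of 80.3 lay 198 bp upstream of it (2R, 17145229 to 17145608), and 119 bp from the TSS of another gene. No replicate's own list had a summit near U3:54Ab, and the other U3 genes, U3:54Aa and U3:9B, had no main summit within 500 bp. Psi28S-3342, shown above, had a summit 160 bp into the gene, close to its 3′ end (X, 5524115 to 5524494, signal 69.6). Its records were 36.2, 21.0 and 22.1 in replicates 1, 2 and 3, highest in replicate 1.

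Among the own lists, that of replicate 1 held most of these sites without a host. Of the 7 genes with a main summit, 6 also had one within 500 bp in the own list of replicate 1, none in that of replicate 2, and Or-CD13 in that of replicate 3. The own list of replicate 1 also held a summit near Or-ACA6, which had no main summit within 500 bp, and held none near U3:54Ab. Of the distinct summits near snoRNA genes, 5 were over 500 bp from the TSS of any gene of another kind. That number was 5, 0 and 1 in the own lists of replicates 1, 2 and 3. At 1 more gene without a host (2R, 19727098 to 19727152) a record of signal 126 passed the authors' score threshold but was left out of the main list.

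By arm, 11 of the 17 snoRNA genes near a summit were on 2R, which holds 96 of the 269. There were 2 of 48 on 3R, 2 of 31 on X, 1 of 41 on 2L, 1 of 52 on 3L and 0 of 1 on arm 4. Of the 11 on 2R, 6 had no host, 3 shared the peak of signal 84.2 and 2 the peak at Uhg4, so they are not separate sites. The share of all genes or of main peaks on each arm was not computed, so a concentration on 2R is not shown. By name, 6 of 112 genes named for a pseudouridine, 2 of 87 named for a methylation and 9 of 70 with other names had a summit within 500 bp.

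Counted as peaks, the members accounted for 54 of 4770 main peaks, 14 near snoRNA genes and 47 at host TSSs, with 7 of both kinds. A peak in all 3 own lists overlapped 18 of the 54 (33.3%), against 36.8% of all main peaks and 39.6% of main peaks within 500 bp of a TSS. The own lists of replicates 1, 2 and 3 overlapped 38, 23 and 31 of them, and 8 overlapped none. Their median signal was 115, against 120 for all main peaks and 124 for those at a TSS. In 5 equal classes of the main list, from the strongest to the weakest, they numbered 9, 11, 11, 13 and 10. The member peaks were thus spread over the whole range of the list.

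In the main list, genes for the proteins that make or use snoRNAs had peaks at nearly the share of all protein-coding genes. The list held genes of the snoRNA particles, their assembly, and the exosome and decay pathways that process or remove host transcripts. By symbol, 31 were found in the annotation. Of these, 5 had a main summit (16.1%), against 16.2% of all protein-coding genes. The own lists had 4 (12.9%), 6 (19.4%) and 4 (12.9%) of the 31 in replicates 1, 2 and 3, against 12.5%, 10.2% and 10.7% of all protein-coding genes, so the share was farthest above that of all genes in replicate 2. None of the genes for the core box C/D proteins had a main summit, namely Fib, the methyltransferase fibrillarin, Nop56, nop5 and hoip. nop5 had a summit in the own list of replicate 2. Nop60B, the pseudouridine synthase of the H/ACA particle, had none in any of these lists. Fib, nop5 and Nop60B are themselves hosts, of 1, 1 and 7 snoRNA genes.

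NHP2, which encodes another H/ACA protein, had a main signal of 218 (3L, 14802309 to 14802465), with 73.7, 76.7 and 65.5 in replicates 1, 2 and 3. Smg5, a gene of nonsense-mediated decay, had the highest signal of the list, 262 (2L, 13904476 to 13904632), with 110, 86.9 and 64.5 in the replicates. The exosome gene Csl4 had 143 with 41.8, 54.0 and 42.0. All 3 were in each replicate's own list. Rrp6, the nuclear exosome nuclease, had 133 and was in the own lists of replicates 1 and 3, and Upf3, of nonsense-mediated decay, had 94.7 and was in that of replicate 2.

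No main summit was found at the other genes of nonsense-mediated decay among those found by symbol (Upf1, Upf2, Smg6). Nor was there one at the exosome and nuclease genes Dis3, Rat1, Rrp4, Rrp40, Rrp42, Rrp45, Rrp46, Ski6, Mtr3 and Mtr4, or at Nopp140, CG10341, rept, Nufip, Phax, Tgs1 and ldbr. Ski6 had a summit in the own list of replicate 2. pont, an ATPase gene of snoRNA particle assembly, also had none, but its records ranked 192, 245 and 279 in the replicates' ranked lists. A record of signal 490 stood 122 bp from its TSS (3R, 10261878 to 10262115) in the ranked counterpart of the main list. It passed the authors' score threshold and would have been at place 220, but neither the main list nor an own list held it. CG11695 itself had a main signal of 133 at rank 2076, and the tagged transgene adds copies of that gene.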

How the data were processed

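The authors deposited peak lists on dm6, per the file headers and text notes, made by the irreproducible discovery rate (IDR) method, in which peak ranks are compared between 2 sets. Which aligner and which caller were used is not given in the sources used here. The lists as deposited give the authors' signal per peak, on a scale not stated, a score scaled from the global IDR (lowest value 830 in the main list) and −log10 of a q-value, and the deposited ranked lists also give −log10 of the global IDR. By identical peak records the main, conservative list compared replicates 1 and 3, while its peaks stood in pooled libraries, so results without a replicate leave it out of the IDR comparison alone. Own lists come from 1 library each.

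Peaks on the 6 arms were kept, with 1 record per summit, and coordinates are 1-based. Genes were those of Ensembl BDGP6.54, sequences were read from the RefSeq genome of that assembly, and no peak or gene ended beyond its arm. Summits were counted within 500 bp of a snoRNA gene or of any annotated TSS of a host, and values per replicate are the strongest record in that window of its ranked list. Overlap meant 1 bp or more. Host classes went by symbol and biotype (RpL, RpS and RpLP as ribosomal proteins). The counting was tested on simulated data. Python 3.11.15, numpy 2.4.6, scipy 1.17.1 and matplotlib 3.10.9 were used.

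The genes named were the 25 hosts with the strongest main summit, all non-coding hosts, every snoRNA gene with a summit within 500 bp, the listed snoRNA protein and processing genes and CG11695. Other hosts are named where a count is broken down. Some hosts that the rule takes in are counted but not reported by name here. For 5 of the 36 symbols on the list of snoRNA protein and processing genes (CG7637, CG4038, Nop140, Naf1 and Smg1) the annotation had no gene under that symbol. Other names were not searched, so genes annotated under one are absent from the 31 counted unless another listed symbol took them in. The members and lists were chosen with earlier results of these data known, and the C or T run was chosen after seeing the data. With 1 group no test was run. Other windows, thresholds, lists, host choices and overlap rules were tried as alternatives. Read totals are not in the lists, so depth per library is unknown.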

Additional observations from a re-analysis of the deposited data

How the results depend on the processing

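Of 86 alternative values computed for 7 results, 59 stayed near the value reported and 27 did not, and beyond what each setting itself removes or adds the cause was not tested. Near means within 1.5 times for a count, inside the 95% Wilson interval for the share in all 3 own lists (22.2% to 46.6%), and within 1 SD over the own lists (5.02) for the median signal. The count of snoRNA genes near a summit was 17 in the main list, 7 within 250 bp and 46 within 1000 bp, and 6 to 11 in the lists without replicate 1 or without replicate 3. At a global IDR of 0.001, which leaves 2651 main peaks, snoRNA genes near a summit numbered 8, hosts 25 (41 in the main list), snoRNA genes with a summit at the gene or host TSS 55 (106), and snoRNA summits over 500 bp from another TSS 1 (5). The share of member peaks in all 3 own lists was then 62.1% (33.3%) and their median signal 163 (115). In the own lists of replicates 2 and 3 snoRNA genes near a summit numbered 5 and 9, those with one at the gene or host TSS 57 and 56, and summits far from another TSS 0 and 1, and hosts numbered 27 in that of replicate 2. Leaving replicate 1 or replicate 3 out of the comparison gave shares in all 3 own lists of 51.3% and 40.4%, median signals of 143 and 128, and 1 and 3 summits far from another TSS. Median signals in the own lists were 56.3, 54.3 and 46.8 on those lists' own scales. Summits far from another TSS numbered 3 within 250 bp, and snoRNA protein and processing genes with a summit 8 within 1000 bp (5). Adding back the 125 records past the score threshold that the main list leaves out, an alternative chosen after seeing the data, gave 18 snoRNA genes, 42 hosts and 6 processing genes. Merging summits within 250 bp, the longest gene as host, the gene's 5′ end alone, peak intervals in place of summits, 50% reciprocal overlap and the pooled list left every result they applied to near its value in this sense. Within it, peak intervals gave 24 snoRNA genes near a summit, and the pooled list 141 snoRNA genes with a summit at the gene or host TSS. No paired analysis was possible because there was 1 group and no comparison between groups. Depth is unknown, so a gene without a summit is not shown to be free of signal, and no control list was analysed here.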
